A study of Mus musculus with 3 samples.

Results

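The genes described here are 6 members of families of secreted protease inhibitors, out of 18738 genes listed in the count tables. They are the cystatins Cst3, Cst8, Cst9 and Cst12, the WAP-domain gene Wfdc10 and the Kazal-type gene Spink4. They were chosen by name for their levels in pre-granulosa cells and in cells that express Amh in these same data, so every difference between those cell classes is given as a description, without a test. The samples were lots 26, 29 and 30 of fetal ovarian somatic cells (FOSCs), and each lot was 1 pool of E12.5 ovarian cells from the embryos of 10 pregnant CD1 mice (Charles River). All lots had the mesonephros cut away, were depleted of germ cells with magnetic antibodies to SSEA1 and CD31, were frozen in Cell Banker 2, and were profiled on thaw with 10X Genomics 3' single-cell chemistry. No lot received another treatment and no other genotype was included, so the 3 lots are replicates of 1 condition, each a mixture of many embryos and not a single animal.

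The typical secreted cystatins block papain-like cysteine proteases, above all the lysosomal cathepsins and their secreted forms. Cst3 encodes cystatin C, which most tissues secrete. Cst8 encodes the cystatin-related epididymal spermatogenic protein (CRES) of the male reproductive tract, and Cst9 encodes testatin, known from the Sertoli cells of the fetal testis. Both belong to a subgroup of cystatins that lacks part of the conserved sites for inhibition of cysteine proteases. WAP-domain and Kazal-type proteins mostly inhibit serine proteases, and Spink4 is best known from the goblet cells of the intestine. Pre-granulosa cells are the supporting cells of the fetal ovary and express Foxl2, while Sertoli cells, their counterparts in the testis, express Sox9 and the Müllerian-duct hormone gene Amh.

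The 4 cystatin genes lie together on chromosome 2 of the mouse genome (GRCm38), within 86332 bases that hold 6 protein-coding genes. In order along the chromosome these are Cst12 (chr2:148789361-148793546, plus strand), Cst8 (chr2:148798785-148805595, plus strand), Cst13, Cst9 (chr2:148835147-148838738, plus strand), the gene 9230104L09Rik and Cst3 (chr2:148871722-148875692, minus strand). Wfdc10 (chr2:164656046-164657368, plus strand) is on the same chromosome, 15780353 bases past the end of that stretch, and Spink4 (chr4:40920052-40931395, plus strand) is on chromosome 4. None of the 6 shares any stretch of 50 bases of its transcripts with another gene, which leaves no identical sequence over which reads could be split. Wfdc10 is the only one of the 6 that overlaps another gene, Wfdc9 on the other strand, and no exons overlap. In the pre-granulosa-like class Wfdc9 itself reached 1.30, 1.60 and 1.09 CPM (counts scaled to a total of 1000000 per class and lot) for lots 26, 29 and 30.

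The promoter windows of the members are shown because neighbours in the cystatin stretch differ in the cells that express them. Each window runs from 250 bases before to 50 bases after the start site (RefSeq sequence, GRCm38.p6), and 5 of the 6 genes had one. Capitals mark every match, on either strand, to 7 short motifs. The letters searched were AAGGTCA for nuclear receptors, AACAAT for SOX factors, AGATAA and TGATAA for GATA factors, GTAAACA for fork head factors, TATAAA for the TATA box and CAGCTG for an E-box. The windows are at chr2:148789115-148789414 (Cst12, plus strand), chr2:148798589-148798888 (Cst8, plus strand), chr2:148834897-148835196 (Cst9, plus strand), chr2:148875463-148875762 (Cst3, minus strand) and chr2:164655796-164656095 (Wfdc10, plus strand).
Cst12: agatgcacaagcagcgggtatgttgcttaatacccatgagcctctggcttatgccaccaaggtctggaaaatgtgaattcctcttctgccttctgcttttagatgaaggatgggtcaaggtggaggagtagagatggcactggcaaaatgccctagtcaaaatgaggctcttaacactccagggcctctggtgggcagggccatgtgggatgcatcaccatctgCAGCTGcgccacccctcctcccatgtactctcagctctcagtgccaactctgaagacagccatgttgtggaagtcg
Cst8: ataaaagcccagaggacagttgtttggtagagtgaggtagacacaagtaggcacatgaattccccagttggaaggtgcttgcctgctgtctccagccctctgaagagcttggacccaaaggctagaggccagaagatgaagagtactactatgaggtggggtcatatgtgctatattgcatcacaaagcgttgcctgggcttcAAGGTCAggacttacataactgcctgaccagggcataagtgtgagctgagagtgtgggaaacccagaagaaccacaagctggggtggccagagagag
Cst9: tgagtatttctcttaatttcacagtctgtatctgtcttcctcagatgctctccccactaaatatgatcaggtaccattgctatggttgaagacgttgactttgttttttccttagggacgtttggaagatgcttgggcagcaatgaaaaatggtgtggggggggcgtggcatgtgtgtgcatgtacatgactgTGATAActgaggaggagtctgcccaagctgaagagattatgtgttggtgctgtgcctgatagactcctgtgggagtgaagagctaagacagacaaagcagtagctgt
Cst3: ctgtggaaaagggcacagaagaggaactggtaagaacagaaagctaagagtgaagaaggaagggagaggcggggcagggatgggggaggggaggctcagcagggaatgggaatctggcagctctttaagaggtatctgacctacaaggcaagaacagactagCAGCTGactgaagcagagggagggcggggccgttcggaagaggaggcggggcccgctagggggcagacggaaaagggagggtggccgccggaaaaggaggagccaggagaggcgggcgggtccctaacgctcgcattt
Wfdc10: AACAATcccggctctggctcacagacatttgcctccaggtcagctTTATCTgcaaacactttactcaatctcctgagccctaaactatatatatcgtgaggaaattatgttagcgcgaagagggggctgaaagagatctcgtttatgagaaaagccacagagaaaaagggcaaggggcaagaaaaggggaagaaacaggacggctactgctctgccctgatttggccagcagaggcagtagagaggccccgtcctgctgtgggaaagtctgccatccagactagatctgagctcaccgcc

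The Cst8 window held AAGGTCA 47 bases before the start site, a motif found in 4.72% of all 32851 promoter windows of this length. The Cst9 window held TGATAA 57 bases before the start site, as did 9.05% of all windows. CAGCTG, present in 16.3% of windows, was found 26 bases before the start of Cst12 and 88 bases before the start of Cst3. The gene positions given above for Cst8 and Cst3 begin upstream of the RefSeq start sites used here. The AAGGTCA of Cst8 and the CAGCTG of Cst3 therefore lie inside the annotated genes. The Wfdc10 window began with AACAAT (10.7% of windows) and held AGATAA on the minus strand, printed as TTATCT, 205 bases before the start (11.2% of windows). GTAAACA and TATAAA, in 3.65% and 13.6% of all windows, were in none of these 5. No motif was shared by the windows of Cst12, Cst8 and Wfdc10, and no matches overlapped. The Cst3 window was the richest in GC of the 5, at 60.3%, with 13 CG pairs, and the others ranged from 46.0% (Cst9) to 52.7% (Cst12), beside a median of 52.7% over all windows.

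After filtering, 28971 of 29103 barcodes were kept (9711, 8553 and 10707 in lots 26, 29 and 30). The tables held 126680758, 87494974 and 141920060 unique molecular identifiers (UMIs, single captured RNA molecules) in that order, and the median kept cell had 11126, 8949 and 11595. Lot 29 was the shallowest, and pairs of lots shared 19 to 30 barcodes. Clustering gave 21 clusters, of which 18 were named in 10 classes from marker genes and 3 (1660 cells) stayed unnamed. The 6 genes, and all other listed inhibitors and proteases, were held out of the genes used for clustering.

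The Amh-positive cells were taken as 1 cluster of 392 cells (90, 286 and 16 in lots 26, 29 and 30). At least 1 Amh UMI was found in 96.7%, 96.2% and 100% of them, and in 1.80%, 2.504% and 0.496% of all other cells. They carried the Sertoli markers in every lot, with Amh at 997, 893 and 617 CPM, Sox9 at 339.6, 475 and 502 CPM and Dhh at 293, 288 and 203 CPM, so the cluster is called Sertoli-like below. The paper reported Sertoli cells in each lot as a contamination and left them out of its analysis of ovarian cell types. The cells were not matched to those of the paper one by one. The pre-granulosa-like class held 11934 cells (4039, 3322 and 4573 by lot) in 3 clusters. Without barcodes called as doublets, 11826 of these cells and 345 of the 392 Amh-positive cells remained. Called doublets were thus more frequent among Amh-positive cells, and they were kept in the main values. Its 8 markers summed to 4159.8, 3712 and 3493 CPM, and to 452, 374 and 598 CPM in the Amh-positive cells, where Foxl2 was at 0 in lots 26 and 30. Foxl2 was low in the pre-granulosa-like class too, at 6.35, 4.62 and 4.00 CPM. Lgr5 differed the least of the 8, with Amh-positive cells at 68.9%, 89.2% and 72.3% of its pre-granulosa-like level. The 8 Sertoli markers summed to 6531, 6917 and 5647 CPM in the Amh-positive cells and to 107, 122 and 142 CPM in the pre-granulosa-like cells.

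Levels are given as CPM of UMIs over all cells of a class in a lot, and are compared between classes for 1 gene at a time. A change in CPM cannot tell fewer expressing cells from fewer RNA molecules per cell, and the per-cell counts further on address this. The 6 genes fell in 2 patterns. Cst3, Cst8 and Cst9 had their highest mean in the Amh-positive cells, and Cst12, Wfdc10 and Spink4 had theirs in pre-granulosa-like cells.

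Cst3 reached 3808, 3017 and 2977 CPM in the Amh-positive cells of lots 26, 29 and 30, with a mean of 3268 ± 469 (SD, n = 3 lots). Its values in pre-granulosa-like cells were 1009, 1025 and 987 CPM, a mean of 1007 ± 19.2. Macrophage-like cells came between these classes, at 1885, 1229.5 and 1636 CPM. The 3 classes did not overlap between lots, and all stood above stromal-like (538 ± 9.90), steroidogenic-like (534 ± 85.4), epithelial-like (479 ± 17.4) and mesonephric-tubule-like cells (469 ± 38.8), whose neighbouring ranges overlapped. Endothelial-like (401 ± 22.3), germ-like (339.5 ± 18.2) and red-blood-cell-like cells (137 ± 85.8) followed, each below the one before in every lot.

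Cst8 was measured at 575, 734 and 410.0 CPM in the Amh-positive cells, and pre-granulosa-like cells had 299, 273 and 309 CPM. The lowest of the former was above the highest of the latter. Epithelial-like cells came next with 90.7, 69.2 and 105 CPM, a mean of 88.2 ± 17.9, below every pre-granulosa-like value. From there on each class overlapped the next in order, down to 20.9 ± 7.74 CPM in germ-like cells.

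Cst9, the testatin gene, was at 150.3, 1909.7 and 909 CPM in the Amh-positive cells. These values rest on 208, 6952 and 246 UMIs, and the exact Poisson 95% intervals were 131 to 172 CPM, 1865 to 1955 CPM and 799 to 1029.5 CPM. The intervals did not meet, so the lots differed by more than the error of counting UMIs, which leaves out the sampling of cells. In lot 30, 2 of the 16 Amh-positive cells held 51.6% of these UMIs, with 91 in 1 cell. No other class exceeded 25.9 CPM in any lot, and that value, in the endothelial-like cells of lot 29, came from 40 UMIs of which 33 were in 1 cell. Pre-granulosa-like cells had Cst9 at 3.71, 9.27 and 5.89 CPM. The Amh-positive cluster, with 0.927%, 3.34% and 0.149% of the cells, held 47.0%, 92.1% and 33.6% of all Cst9 UMIs. Lot 29 had the highest Cst9 level in each of the 10 classes, from 4.53 CPM in germ-like cells upwards. The same lot held the most Amh-positive cells and the highest Cst9 level within them, and the part of that in the other classes was not tested.

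Pre-granulosa-like cells had Cst12 at 310.0, 175 and 174 CPM, a mean of 219.8 ± 78.2, and the Amh-positive cells had it at 66.5, 33.5 and 33.2 CPM. Epithelial-like cells ranked between, with 90.1, 45.1 and 64.1 CPM, and overlapped the Amh-positive cells but not the pre-granulosa-like cells. The remaining classes had means from 34.9 (macrophage-like) to 9.01 CPM (mesonephric-tubule-like), each overlapping the next. Pre-granulosa-like cells, with 41.6%, 38.8% and 42.7% of the cells, held 75.3%, 74.9% and 71.4% of the Cst12 UMIs.

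Wfdc10 levels were 149.6, 93.6 and 98.8 CPM in pre-granulosa-like cells, which held 79.9%, 80.2% and 79.5% of its UMIs. In the Amh-positive cells it was at 52.7, 26.1 and 14.8 CPM, the last from 4 UMIs with an exact Poisson 95% interval of 4.03 to 37.8 CPM. The mesonephric-tubule-like cells spread the most, with 84.5, 16.6 and 0 CPM from 32, 10 and 0 UMIs, and every class below pre-granulosa-like cells overlapped its neighbour in the order.

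Spink4 levels were 54.2, 32.0 and 32.8 CPM in pre-granulosa-like cells, against 36.8, 9.06 and 33.2 CPM in the Amh-positive cells, from 51, 33 and 9 UMIs. These ranges overlapped, unlike those of the other 5 genes. All other named classes had mean levels of at most 12.3 CPM, and pre-granulosa-like cells held 79.1%, 81.2% and 79.4% of the Spink4 UMIs.

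**Figure D1:**
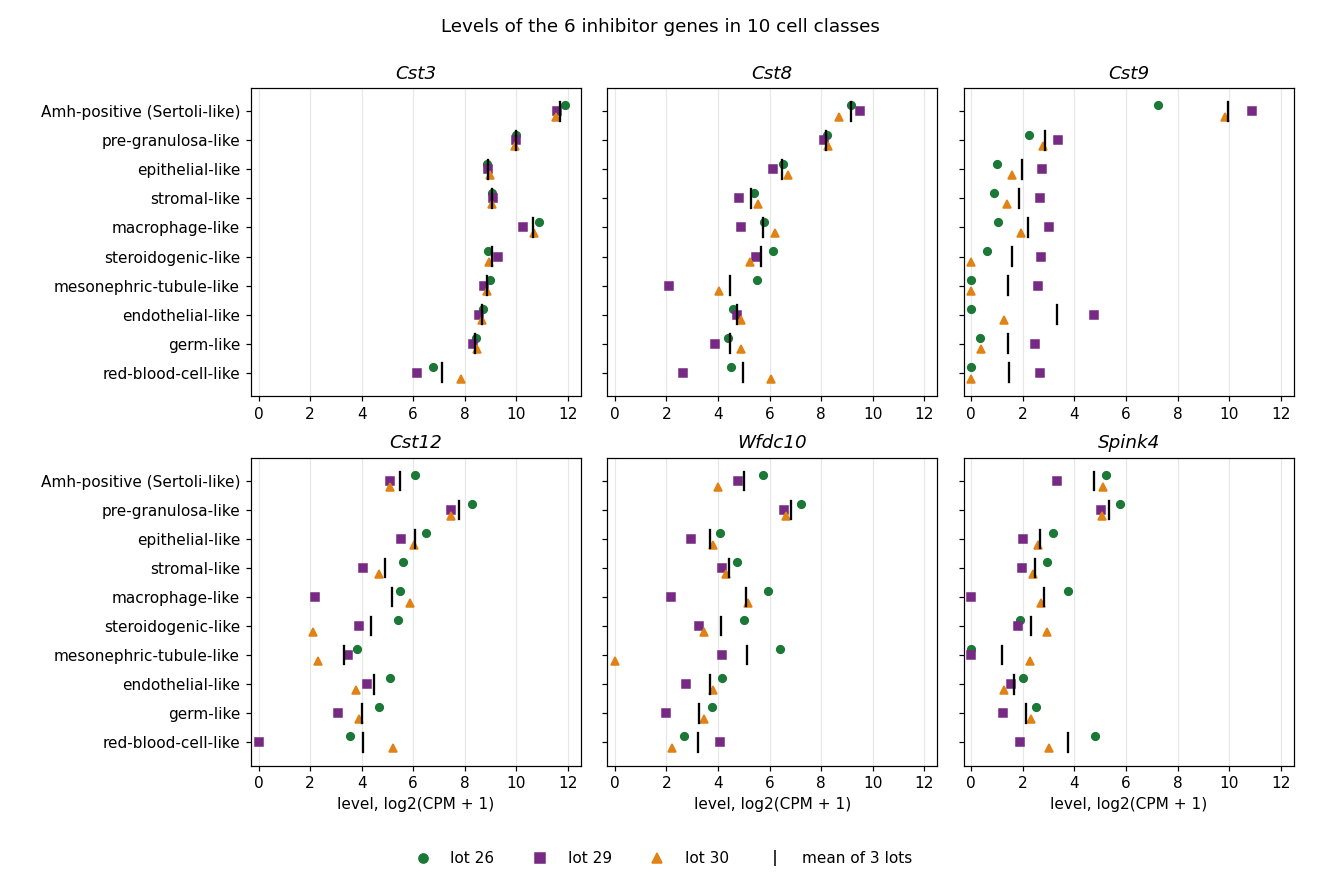
Level of each gene as log2(CPM + 1) (x axis) in the 10 cell classes (y axis), with 1 symbol per lot and a black bar at the mean of the 3 lots. Cst3, Cst8 and Cst9 lie farthest right in Amh-positive cells, Cst12 and Wfdc10 in pre-granulosa-like cells, and the 3 Cst9 values of Amh-positive cells run from 150.3 to 1909.7 CPM.

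As a ratio within lots, pre-granulosa-like over Amh-positive cells, the mean log2 difference was -1.69 ± 0.20 (SD, n = 3 lots) for Cst3, -0.93 ± 0.51 for Cst8 and -6.77 ± 1.25 for Cst9. It was 2.33 ± 0.10 for Cst12, 2.03 ± 0.64 for Wfdc10 and 0.79 ± 0.94 for Spink4. Cst12 had the narrowest spread, with log2 ratios of 2.22, 2.38 and 2.39, although its level in pre-granulosa-like cells was highest in lot 26. Wfdc10 and Spink4 were likewise highest in lot 26 in both classes. For Spink4 the lots gave 0.56, 1.82 and -0.02, and the direction was not the same in all of them.

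The fraction of cells in which a gene was seen also differed between classes. In pre-granulosa-like cells 81.7% had a Cst8 UMI, 46.9% a Cst12 UMI, 28.1% a Wfdc10 UMI and 26.3% a Spink4 UMI. Endothelial-like cells, which served as the background class, had shares of 19.2%, 14.0%, 10.0% and 4.01% for these genes, at median depths of 14132 to 15724 UMIs against 8303 to 11214 in pre-granulosa-like cells. Cst9 was found in 77.6% of Amh-positive cells, 4.96% of pre-granulosa-like cells and 2.58% of endothelial-like cells. By lot the Amh-positive share was 65.6%, 81.8% and 68.8%, with exact Clopper-Pearson 95% intervals of 54.8% to 75.3%, 76.9% to 86.1% and 41.3% to 89.0%. In Amh-positive cells the shares with a Cst12, Wfdc10 or Spink4 UMI were 22.4%, 18.6% and 16.1% over all lots together. By lot, the shares for Cst12 and Spink4 were above those of endothelial-like cells in each lot, also at 4000 UMIs per cell. In lot 30 at that depth, however, these shares came from 1 and 2 of 14 Amh-positive cells, too few for a firm comparison with background. For Wfdc10 they were 34.4% and 14.0% in lots 26 and 29, against 10.9% and 5.68%, but in lot 30 only 2 of 16 Amh-positive cells had a UMI, against 11 of 87 endothelial-like cells, which is no more than background. Cst3 was present in 100% of Amh-positive, 99.8% of pre-granulosa-like and 95.1% of endothelial-like cells, and in 45.0% to 61.9% of red-blood-cell-like cells.

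To compare cells at 1 depth, each cell was thinned to 4000 UMIs and shallower cells were left out (50 pre-granulosa-like, 5 Amh-positive and 5 endothelial-like cells). Cst12 was then found in 38.5%, 29.6% and 28.7% of pre-granulosa-like cells and in 5.78%, 3.45% and 3.57% of endothelial-like cells. Wfdc10 was found in 23.6%, 16.5% and 17.1% against 4.62%, 2.30% and 3.57%, and Spink4 in 17.2%, 11.3% and 11.9% against 1.73%, 2.30% and 2.38%. For Cst9, 42.2%, 67.8% and 57.1% of Amh-positive cells had a UMI at this depth, against 1.36%, 3.38% and 2.19% of pre-granulosa-like cells. In Amh-positive cells at this depth Wfdc10 was found in 16.7%, 5.30% and 0%, the last below the endothelial-like share.

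The per-cell counts differed in shape between genes. Among pre-granulosa-like cells at 4000 UMIs, 61.5%, 70.4% and 71.3% had no Cst12 UMI while 69, 8 and 13 cells had 10 or more. Cst8, by contrast, had no UMI in 39.3%, 43.0% and 39.4% of cells, and only 1, 1 and 3 cells reached 10. The largest single-cell count of Cst12 before thinning was 59 UMIs, and that of Cst8 in this class was 27 UMIs. Cst9 was uneven in the Amh-positive cells of lot 29, where 32.2% had none and 34.3% had 10 or more UMIs. The largest count there before thinning was 202 UMIs in 1 cell. In lot 26 no Amh-positive cell reached 10 Cst9 UMIs at this depth. Every Amh-positive cell had Cst3 at this depth, with a variance of 4.67, 6.58 and 2.96 times the mean in lots 26, 29 and 30.

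**Figure D2:**
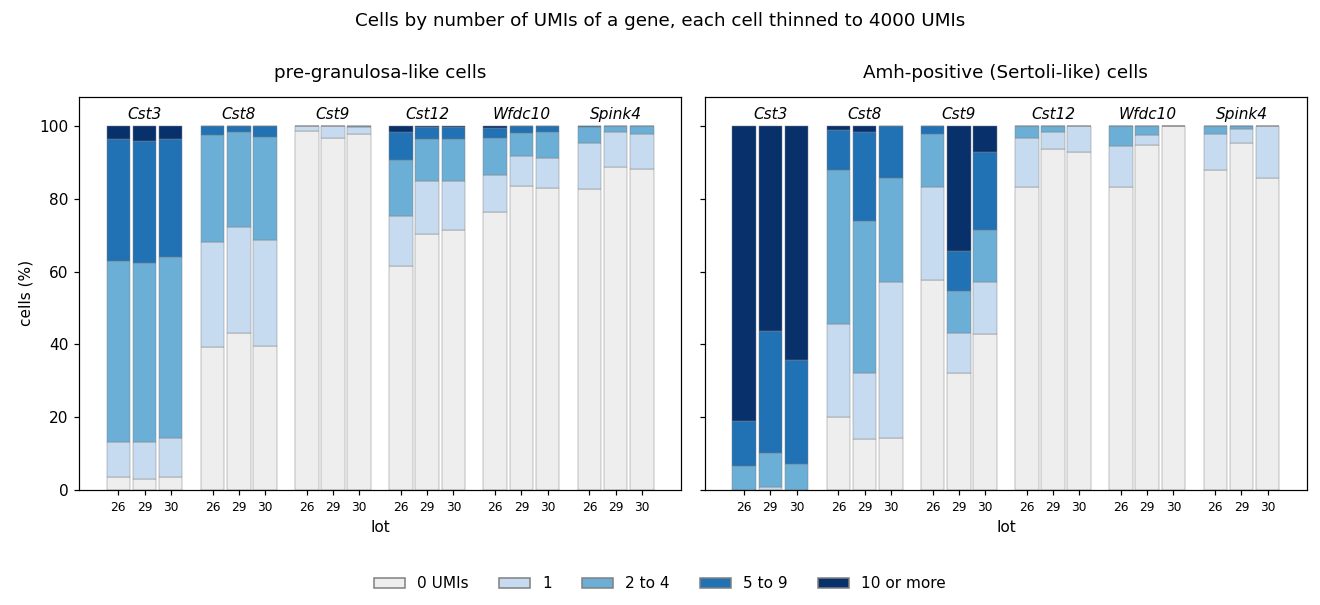
Percent of cells (y axis) with 0, 1, 2 to 4, 5 to 9 and 10 or more UMIs of each gene after thinning to 4000 UMIs per cell, by lot (x axis), in pre-granulosa-like cells (left) and Amh-positive cells (right). The dark part of the Cst9 bars covers 0%, 34.3% and 7.14% of Amh-positive cells in lots 26, 29 and 30, and the pale part of the Cst12 bars covers 61.5% to 71.3% of pre-granulosa-like cells.

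The 3 pre-granulosa-like clusters differed in the members they carried. Cluster 0 (5477 cells) was led by Ly6d and Gng13, with Cst12 and Wfdc10 also among its 10 leading genes. Cluster 1 (3452 cells) had Fst, which encodes the activin antagonist follistatin, and Spink4 among its 10 leading genes. Cluster 2 (3005 cells) was led by the heat shock genes Hspa1a and Hspa1b, and 2806 of its cells came from lot 30. The clusters were made from the same cells, so the levels below are given without a test.

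Spink4 was at 120.2, 61.4 and 77.5 CPM in cluster 1, above 32.2, 22.1 and 22.8 CPM in cluster 0 and a range of 12.47 to 24.2 CPM in cluster 2. The lowest value of cluster 1 was above the highest of the others. Cst12 was at 345, 214 and 264 CPM in cluster 0 and at 212, 75.7 and 52.5 CPM in cluster 1, and Cst8 was at 321, 302 and 329.9 CPM against 236, 201 and 196 CPM. Both genes were thus lower in cluster 1 in every lot, with no overlap. Cluster 2 had Cst12 at 283, 158 and 190.1 CPM and Cst8 at 312, 250.04 and 335 CPM, and overlapped cluster 0 for both.

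Wfdc10 did not separate clusters 0 and 1. Its levels were 146.5, 98.2 and 103 CPM in cluster 0 and 159, 87.1 and 78.4 CPM in cluster 1. The share of cells at 4000 UMIs with a Wfdc10 UMI was 24.8%, 18.0% and 19.7% in cluster 0 and 20.8%, 13.6% and 13.6% in cluster 1. Cst3 ranged from 891 to 1081 CPM over all 3 clusters and lots, and Cst9 from 3.6 to 10.0 CPM.

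**Figure D3:**
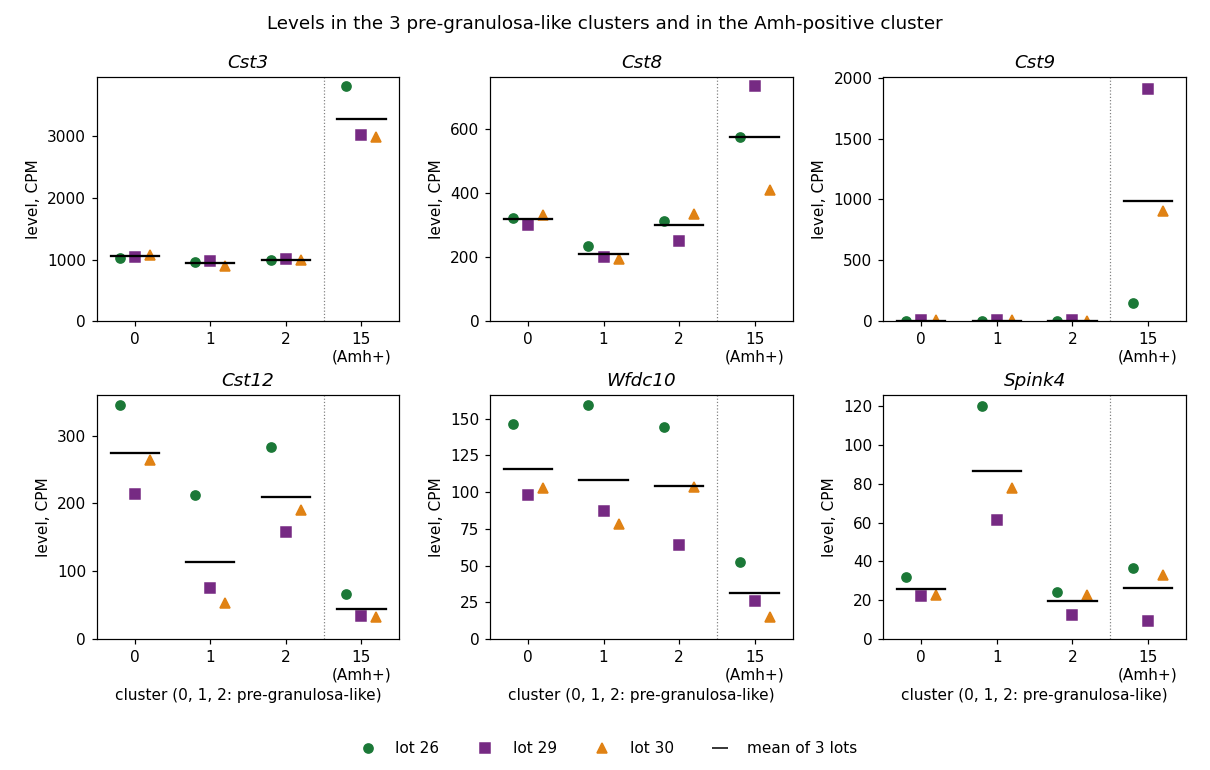
Level in CPM (y axis, from 0) of each gene in pre-granulosa-like clusters 0, 1 and 2 and in the Amh-positive cluster 15 (x axis), with 1 symbol per lot and a black line at the mean. Spink4 is highest in cluster 1 and Cst8 and Cst12 are lower there than in cluster 0 in each lot, while Wfdc10 ranges overlap.

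Cst12 and Wfdc10 shared their classes but not closely their cells. In cluster 0 of lot 26, 45.6% of cells had a Cst12 UMI at 4000 UMIs, and of the cells with a Wfdc10 UMI 48.4% did. The pairs of values were 37.9% and 41.2% in lot 29 and 40.6% and 42.1% in lot 30. In cluster 1 the same pairs were 23.1% and 31.7%, 12.8% and 14.1%, and 9.4% and 11.8%, with 83, 20 and 18 cells that held both genes. Cells with Wfdc10 therefore held Cst12 a little more often than all cells did, in each of these clusters and lots. Within cluster 1, Spink4 was in 31.6%, 19.3% and 23.0% of all cells and in 29.9%, 15.7% and 23.8% of the cells with Cst12.

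The UMIs of both genes were unevenly spread over cells. In cluster 0 the 10% of cells with the most Cst12 held 46.9%, 50.5% and 49.0% of its UMIs, and in cluster 1 they held 74.8%, 85.2% and 85.4%. For Wfdc10 the same share was 64.6%, 75.1% and 71.3% in cluster 0 and 73.8%, 87.9% and 85.9% in cluster 1. For Cst8 it was 28.1%, 30.8% and 29.8% in cluster 0. At 4000 UMIs per cell the variance of Cst12 was 4.03, 2.93 and 3.32 times its mean in cluster 0, that of Wfdc10 was 3.35, 3.33 and 2.75 times and that of Cst8 was 1.44, 1.46 and 1.69 times, where counting alone gives about 1.

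Over the 21 clusters, the gene most like each member in level (Pearson r of log2(CPM + 1), mean of 3 lots, 10688 genes compared) was sought as a description. The clusters share libraries, and no p is given. Cst12 was most like Ccdc61 (r = 0.956), Gm17660 (0.956) and Gm11744 (0.943). Wfdc10 was most like Ppp1r3g (0.935), Aldh1b1 (0.927) and Gm11744 (0.903), the last being also among the likest genes of Cst12. Cst8 was most like Wnt6 (0.911), the serpin gene Serpina3a (0.909) and Hsbp1l1 (0.908), and the likest genes of Spink4 included Hsbp1l1 (0.907) and Tnni3 (0.899). Cst9 was most like 8030411F24Rik (0.947), Dok7 (0.941) and the Sertoli ligand gene Dhh (0.937). Its mean level was 989.5 CPM in the Amh-positive cluster and at most 9.09 CPM in any other, so its r values rest largely on 1 cluster. Cst3 had lower r values, with Efhd2 (0.874), Plekhj1 (0.857) and Cnp (0.850) nearest. Between members, the r of Cst8 with Cst12 was 0.882 and that of Cst9 with Cst12 was 0.371.

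The members were tested only between classes that the choice of genes had not used. UMI sums per class and lot (n = 3 lots) were compared with edgeR (quasi-likelihood test), p-values were adjusted by Benjamini-Hochberg over the 12690 genes tested, and all 6 members passed the filter on low counts. Between epithelial-like and stromal-like cells, 13.6% of all genes were higher and 15.4% lower in epithelial-like cells. Of the members, 2 were higher and none lower, since 4 did not pass at an adjusted p of 0.05.

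Cst8 was higher in epithelial-like cells (90.7, 69.2 and 105 CPM) than in stromal-like cells (41.0, 27.5 and 46.1 CPM) with no overlap of lots, by 1.28 on the log2 scale (SE 0.27, adjusted p = 0.00033). Cst12 was higher by 1.25 (SE 0.36, adjusted p = 0.0078), from 90.1, 45.1 and 64.1 CPM against 47.6, 15.5 and 24.6 CPM, and the highest stromal-like value was above the lowest epithelial-like value. The Cst12 call was lost without lot 30 (adjusted p = 0.13) and with DESeq2 (adjusted p = 0.12). When cells called as doublets were left out, both differences were larger, at 2.26 for Cst8 and 2.28 for Cst12. Wfdc10 was at 15.7, 6.79 and 13.0 CPM against 25.6, 17.0 and 18.6 CPM, a difference of -0.71 (SE 0.35, adjusted p = 0.13). With the lot as a block the Wfdc10 difference of -0.71 passed (adjusted p = 0.0014). Cst3 (-0.09), Cst9 (0.32) and Spink4 (0.28) did not pass.

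Pre-granulosa markers moved with this comparison too, and their part in it was not tested. The 8 markers summed to 1035, 705 and 943 CPM in epithelial-like cells and to 792, 501 and 668 CPM in stromal-like cells, and none was at 0. Of the 8, 4 (Irx3, Rspo1, Bmp2 and Lgr5) were higher in epithelial-like cells with no overlap of lots and 1 (Wnt4) was lower. As a share of the pre-granulosa-like level, averaged over lots, the epithelial-like level was 29.9% for Cst8, 30.6% for Cst12, 10.3% for Wfdc10 and 7.30% to 58.4% for single markers.

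Between germ-like cells and the mean of epithelial-like and stromal-like cells, 35.1% of all genes were higher and 39.3% lower in germ-like cells. Of the members 4 were lower and none higher. Cst8 fell by 1.47 (SE 0.25, adjusted p = 6.3e-06), Cst12 by 1.47 (SE 0.35, adjusted p = 0.00040), Wfdc10 by 0.78 (SE 0.35, adjusted p = 0.046) and Cst3 by 0.58 (SE 0.13, adjusted p = 0.00026). The Wfdc10 call was lost without lot 29 (adjusted p = 0.054), without lot 30 (0.18), with DESeq2's size factors (0.094) and with DESeq2 (0.32). Spink4 did not pass (-0.47, adjusted p = 0.22), but with the lot as a block it did (-0.55, adjusted p = 0.0096). Cst9 (-1.10, adjusted p = 0.33) did not.

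In germ-like cells Cst8, Cst12, Wfdc10 and Spink4 were at 7.04%, 6.70%, 7.22% and 8.26% of their pre-granulosa-like level as means of the lots, and the 8 pre-granulosa markers were at 5.02% to 9.69%. Single lots ranged from 3.12% (Wfdc10, lot 29) to 11.98% (Spink4, lot 30) for these members and from 0% to 12.1% for the markers. Cst3 was at 33.8%, with lots from 31.2% to 36.1%, above all of these. The summed markers were at 398, 195 and 334 CPM in germ-like cells, with Foxl2 at 0 in at least 1 lot, and their part in the germ-like values was not tested.

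The macrophage-like class (cluster 17, 135 cells) was led by genes of neutrophils (Ngp, Camp, S100a9 and S100a8) beside those of macrophages. The former came from 6 cells, 3 in lot 26 and 3 in lot 30, which had at least 5 S100a8 UMIs and held 11317 of the 11323 S100a8 UMIs of the class but 1 of its 1882 C1qa UMIs (C1qa is a macrophage marker). Between macrophage-like cells, these 6 included, and the same classes, 17.8% of all genes were higher and 16.8% lower in macrophage-like cells. Of the members 2 were higher and none lower. Cst3 was higher by 1.67 (SE 0.13, adjusted p = 2.5e-12), and every macrophage-like value (1885, 1229.5 and 1636 CPM) was above 1000. Wfdc10 was higher by 1.43 (SE 0.52, adjusted p = 0.033), but its values were 59.9, 3.56 and 34.5 CPM from 58, 1 and 25 UMIs, and the lot 29 value was below all others. This call was lost without lot 26 (0.93, adjusted p = 0.32), without lot 30 (adjusted p = 0.12), without called doublets (adjusted p = 0.23) and with DESeq2 (adjusted p = 0.18). Without the 6 cells with neutrophil genes Cst3 was higher by 1.69 (adjusted p = 2.2e-12) and Wfdc10 by 1.49 (adjusted p = 0.027). Cst8, Cst9 and Cst12 differed by 0.04 or less on the log2 scale, in directions that changed with the scaling and without those 6 cells, and Spink4 (0.72) did not pass. The pre-granulosa markers summed to 983, 431 and 655 CPM in the 68, 21 and 46 macrophage-like cells, and these markers were at 15.7% to 28.0% of their pre-granulosa-like level, beside 26.2% for Wfdc10 and 158% for Cst3.

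**Figure D4:**
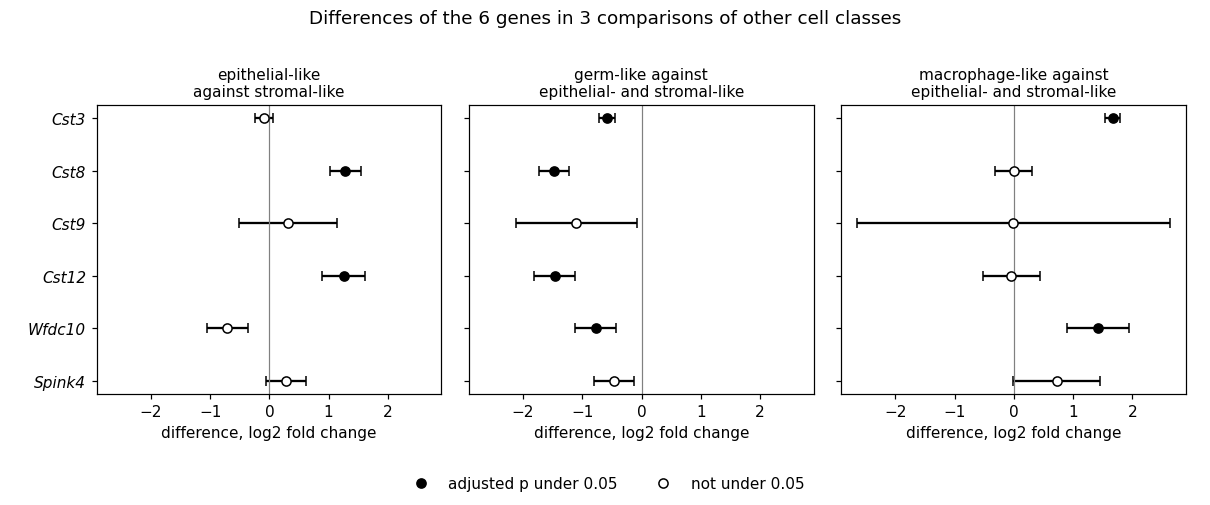
Difference of each gene as a log2 fold change with its standard error (x axis) in 3 comparisons of cell classes, with filled symbols where the adjusted p from edgeR was under 0.05. Cst8 and Cst12 lie right of 0 in the left panel (1.28 and 1.25), 4 genes lie left of 0 with filled symbols in the middle panel, and Cst3 (1.67) and Wfdc10 (1.43) are filled in the right panel, where the directions of Cst8, Cst9 and Cst12 change with the scaling.

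The other inhibitors of the same families were read from lists of 94 genes in the tables besides the members, of which 33 passed the filter on low counts. Beside the contrast that chose the members, where 19.1% of all genes were higher and 17.9% lower in pre-granulosa-like than in Amh-positive cells, the counts are given as a description. Of 4 other cystatin genes measured, 1 was higher in pre-granulosa-like cells and 2 lower. Of 9 WAP-domain genes 4 were higher and 1 lower, of 5 Kazal and Kunitz genes 1 and 1, and of 15 serpins, TIMPs and other inhibitors 5 and 2.

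Among the WAP-domain genes, the mean level of Wfdc1 was 69.6 CPM among pre-granulosa-like and 9.55 CPM among Amh-positive cells. In the same order, Wfdc6a was at 14.3 and 2.38 CPM and Wfdc13 at 5.26 and 0.699 CPM, while Wfdc18 was at 0.0177 and 18.1 CPM. Of the cystatins, Cst11 was at 3.58 and 37.2 CPM and Cst13, the neighbour of Cst8 and Cst9, at 4.50 and 11.1 CPM. Cst13 did not pass and Cst11 ranged from 7.39 to 56.6 CPM over the lots of Amh-positive cells. Ahsg, which encodes the cystatin-fold protein fetuin-A, was at 1.74 and 22.0 CPM. Serpine2, which encodes protease nexin, was at 9.66 and 457 CPM, and Spint2, a Kunitz inhibitor of membrane serine proteases, at 77.4 and 357 CPM. In the other direction, Serping1 (the complement C1 inhibitor) was at 35.5 and 6.35 CPM and the metalloprotease inhibitor Timp2 at 76.2 and 34.4 CPM.

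Of 30 listed proteases measured, 6 were higher and 6 lower in pre-granulosa-like than in Amh-positive cells. Of all genes 19.1% were higher and 17.9% lower, so both counts were near the shares of all genes. Ctsl, the cysteine protease cathepsin L, was at 313 CPM in pre-granulosa-like and 522 CPM in Amh-positive cells, and Ctsh was at 83.6 and 175 CPM. The secreted gelatinase gene Mmp2 was at 10.7 and 87.9 CPM and Prss35 at 8.50 and 49.7 CPM, while the matrix protease gene Adamts1 was at 113 and 42.9 CPM. Ctsb was at 100.4 and 135 CPM and did not pass.

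Between epithelial-like and stromal-like cells, 6 of the 33 other inhibitors were higher and 9 lower in epithelial-like cells, and 3 of the 30 proteases were higher and 10 lower, beside 13.6% of all genes higher and 15.4% lower. Spint2 rose by 2.15 on the log2 scale (SE 0.13, adjusted p = 1.0e-13), from 15.4 CPM in stromal-like to 65.0 CPM in epithelial-like cells. Cst11, at 1.47 and 0.456 CPM, was higher by 1.71 (SE 0.48, adjusted p = 0.0076). Genes that were lower included Ctsk at -3.82, Adamts5 at -2.37, Htra3 at -1.84, Serpine2 at -1.51, Mmp14 at -1.31 and Mmp2 at -1.26. The median difference of the 30 proteases was -0.22 beside 0.02 over all genes.

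In germ-like cells 14 of 15 serpins, TIMPs and other inhibitors were lower than in epithelial-like and stromal-like cells, with none higher, and 20 of 30 proteases were lower and 5 higher, beside 39.3% of all genes lower and 35.1% higher. The largest falls in these lists were those of Serpina3g (-3.74), Adamts5 (-3.62) and Serpinb1a (-3.19). Timp3 fell by 2.95, Timp1 by 2.48 and Ctsl by 1.80. The median difference was -2.19 for that inhibitor list and -1.18 for the proteases, beside -0.05 over all genes. Against this, Wfdc15a (7.71), Spint1 (5.21), Wfdc2 (3.37) and Spint2 (1.04) were higher, as were the membrane protease gene St14 (4.70), which encodes matriptase, and Ctsd (1.19).

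In macrophage-like cells 15 of 30 proteases were higher and 6 lower, where 17.8% and 16.8% of all genes were, so the count of lower proteases was near that of all genes. Without the 6 cells with neutrophil genes the counts were 14 and 6. Those higher included cysteine proteases of the lysosome, with Ctss at 10.85 on the log2 scale, Ctsc at 4.51, the legumain gene Lgmn at 3.80 and Ctsb at 3.72 (1055 ± 275 CPM against 82.6 ± 11.5). Ctsl, at 268 ± 89.9 against 259.9 ± 45.4 CPM, did not pass (0.13, adjusted p = 0.64). The inhibitors Wfdc17 (9.65), Slpi (9.14) and Serpinb8 (6.57) were higher and Timp3 (-1.44) and Timp1 (-1.41) lower. Of the 47 Slpi UMIs of this class, however, 41 were in the 6 cells with neutrophil genes, as were 18 of 63 Wfdc17 UMIs and none of 17 Serpinb8 UMIs. Without those cells Slpi was at 6.41, 0 and 0 CPM and did not pass the filter on low counts, and Wfdc17 was higher by 9.30 and Serpinb8 by 6.64. Each sum of epithelial-like or stromal-like cells held at most 5 UMIs of Ctss, Wfdc17, Slpi, Serpinb8 and Wfdc15a, so the size of those fitted differences depends on the prior count.

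Ctsb was at 1069, 773 and 1323 CPM in macrophage-like cells and at 178, 132 and 96.0 CPM in Amh-positive cells, where Cst3 was highest. Ctsl was at 612, 485 and 469 CPM in Amh-positive cells, above 299, 323 and 317 CPM in pre-granulosa-like cells and 261, 182 and 361 CPM in macrophage-like cells. Ctss was at 296, 149.7 and 300.4 CPM in macrophage-like cells and at 0 in all 3 lots of Amh-positive cells, where a count of 0 allows up to 2.17, 0.824 and 11.1 CPM (the level of 3 UMIs).

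**Figure D5:**
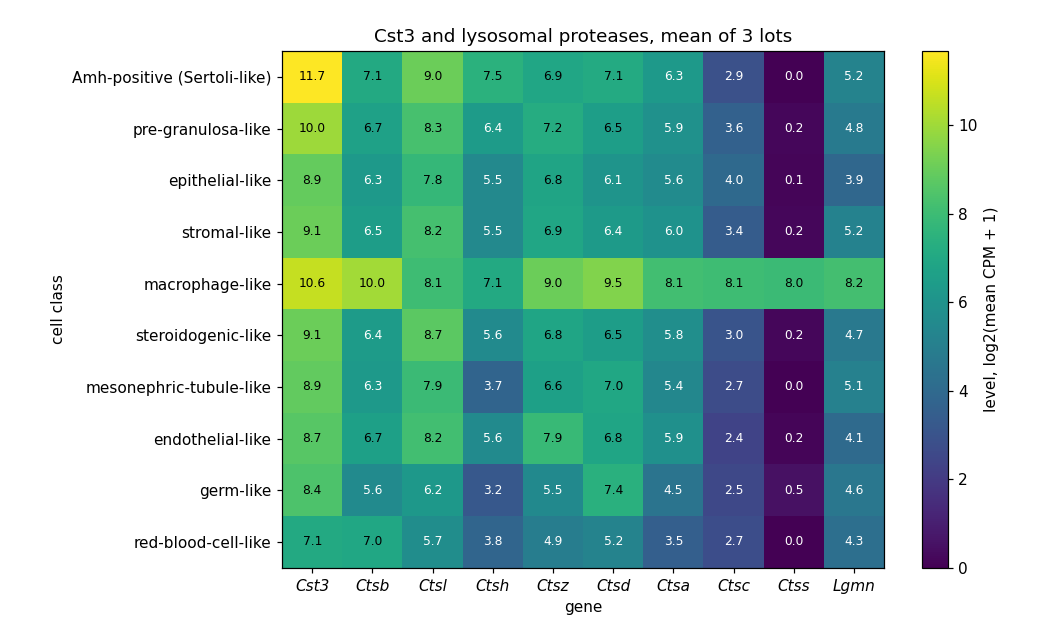
Level as log2(mean CPM + 1) over 3 lots (colour and number) of Cst3 and 9 lysosomal proteases (x axis) in the 10 cell classes (y axis). Cst3 is brightest in Amh-positive cells (3268 CPM), next in macrophage-like cells (1584 CPM), and Ctsb, Ctsd, Ctsz, Ctsc, Ctss and Lgmn are brightest in macrophage-like cells.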

How the data were processed

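RNA was measured per cell in 3 lots, which serve as replicates of 1 group. The authors deposited UMI counts per gene and cell, not normalized, which the submitters' processing notes place on GRCm38 with UMI-tools, STAR 2.7 and featureCounts 2.0.1. The annotation release and the strand setting are not given in the sources used here, so reads of genes that overlap on opposite strands may be counted together. Counts were used as deposited.

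Barcodes with 200 to 9000 genes and at most 10% mitochondrial UMIs were kept, as in the study's methods. Cells of all lots were log-normalized and clustered in Seurat 5.3.0 (R 4.3.3) on 2000 variable genes and 50 principal components at a resolution of 0.8, after 153 listed genes, the 6 members among them, had been taken out of the variable genes (45 were among them). Each cluster was scored on 10 marker lists, as the average of log2(CPM + 1) minus its median over clusters. It took the name of the best list where that score reached 1 and led the next by 0.25. In addition, 3 markers had to be raised by 0.5, and no other list could have more markers among the 10 leading genes. A cluster of low depth with no marker of its best list among those genes stayed unnamed. Cluster 12 (730 cells) was such a case, with a pre-granulosa-like score of 2.135 and a depth of 0.243 of its lots' median UMIs. Its mean levels were 82.7 CPM for Cst8 and 40.0 CPM for Cst12. Doublets were called with Scrublet in scanpy 1.11.5 (expected rate 8%, 566, 347 and 635 cells called in lots 26, 29 and 30), kept in all main values and left out in an alternative.

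UMIs were summed per class and lot into 30 sums of 10 classes, each with at least 10 cells. These were tested in edgeR 4.0.16 with TMM scaling and filterByExpr, by the quasi-likelihood test, and p-values were adjusted by Benjamini-Hochberg over the whole table (threshold 0.05). DESeq2 1.42.0 was an alternative. On simulated data for the comparison of epithelial-like with stromal-like cells, with 12502 genes tested, 92 of 100 genes changed 2-fold and 98 of 100 changed 4-fold were recovered, and 3.06% of the calls were false. The simulation gave all genes the same dispersion, had no lot effect and changed only genes with higher counts. Its rates therefore need not hold for the members or for sums that share a lot. Sums that share a lot share its pool of cells, which pairs them. Across 135 such pairs the median r of their deviations from the class means was 0.109, with 77 above 0.1, and a fit that blocks on the lot was among the alternatives. The main p-values rest on the spread between these 3 pools within a class. That spread was estimated over all 10 classes, and the lot was not in the main fit. Intervals (95%, Clopper-Pearson or Poisson) and the limit of 3 counts cover counting error only. The fewer UMIs of a gene a class held in a lot, the wider is the interval relative to the level.

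The members and the gene lists were chosen with earlier results of these data known. Of the listed genes, those past the threshold with a log2 fold change of at least 1 could be named, at most 15 in each direction, along with any listed protease where the sentence is about proteases. Cst13, Wfdc9 and the leading genes of clusters were named after their values were seen. Positions are from GENCODE's GRCm38 annotation and promoter windows from RefSeq. Alternatives were a stricter cell filter (1000 genes, 5% mitochondrial UMIs), resolutions of 0.4 and 1.2, listed genes put back, doublets left out, thinning, Amh-positive cells set by 1 or 3 Amh UMIs, another scaling, no low-count filter, DESeq2, the lot block, only the compared classes, and each lot left out. Some leading or likest genes are not reported here.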

Additional observations from a re-analysis of the deposited data

How the results depend on the processing

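Amh-positive cells (16 in lot 30) and macrophage-like cells (21 in lot 29) were few, and counting error limits their values. Of the mean levels, 134 alternative values moved by less than the spread between lots, and of the log2 ratios of pre-granulosa-like to Amh-positive cells 65 did. The ratio of Cst12 was 2.75 without called doublets, 2.90 after thinning, 1.58 with Amh-positive cells set by at least 1 Amh UMI, and 2.23 without cluster 2, an alternative chosen after seeing the data. The set with at least 1 Amh UMI also gave -0.64 for Cst3, -0.10 for Cst8 and -5.32 for Cst9. It has 811 cells in place of 392, and Cst3, Cst8 and Cst12 were at 1597, 328 and 73.7 CPM in it. Without cluster 2 the Cst8 level of pre-granulosa-like cells was 275 CPM. The cause was not tested for these or for the values that follow.

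Counts of called genes moved as follows. For pre-granulosa-like against Amh-positive cells, leaving out 1 lot gave 1553 to 1925 genes higher (2422 with all lots), 5 to 10 listed inhibitors higher and 2 to 5 listed proteases higher, 11 inhibitors were lower with no low-count filter, and 11 proteases were lower with the lot as a replicate block. For epithelial-like against stromal-like cells the lot block gave 3266 genes higher and 3129 lower (1729 and 1955 without it) and 6 proteases higher, the compared classes alone gave 2681 genes higher and 14 inhibitors lower, no low-count filter gave 15 inhibitors lower, and leaving out 1 lot gave 914 to 1616 genes higher, 3 to 5 inhibitors higher, 1 to 4 proteases higher and 6 to 10 proteases lower. For germ-like cells 13 inhibitors were higher with no low-count filter and 11 with the compared classes alone. For macrophage-like cells 16 inhibitors were higher with no low-count filter, and leaving out 1 lot gave 1184 to 1866 genes lower, 5 to 12 inhibitors higher and 3 to 5 lower.

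Of the members' tests, 141 alternatives kept direction and side of the threshold, and apart from those given beside the results only differences near 0 in macrophage-like cells turned. Cst8 was at 0.112 with DESeq2's size factors, 0.060 with DESeq2 and 0.022 with the compared classes alone, and from -0.11 to 0.047 without 1 lot. Cst9 was at 0.13 with those size factors, 0.38 with DESeq2 and 0.44 with the lot block, and from -0.31 to 0.41 without 1 lot. Cst12 was at 0.069 with those size factors and from -0.46 to 0.31 without 1 lot. Without the 6 cells with neutrophil genes, an alternative chosen after seeing the data, Cst8 was at 0.058, Cst9 at 0.061 and Cst12 at 0.015. With the lot as a replicate block, Wfdc10 in epithelial-like cells (-0.71) and Spink4 in germ-like cells (-0.55) passed in addition, and it ended no member's call.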

Other observations

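Cluster 11 (887 cells) stayed unnamed. In lots 26, 29 and 30 Cst3 was at 833, 899.8 and 831 CPM, Cst8 at 64.8, 74.0 and 88.7 CPM, Wfdc10 at 32.8, 33.1 and 36.0 CPM and Spink4 at 27.5, 26.1 and 15.2 CPM, while Cst12 ranged from 47.0 to 61.7 CPM. Each of these lay below every value of the pre-granulosa-like class, and the class means of epithelial-like and stromal-like cells were lower for Cst3, Wfdc10 and Spink4. The Cst8 and Cst12 means of this cluster (75.8 and 55.2 CPM) lay below those of epithelial-like cells (88.2 and 66.5 CPM).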
